A study of Homo sapiens with 12 samples.

Results

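The ZNF genes that lie side by side on the short arm of human chromosome 19, in the stretch named 19p12, were followed in HAP1 cells with and without SETDB1. A gene was taken as a member when its GENCODE 29 symbol began with ZNF and a digit and it started between 19.5 and 24.6 Mb of chromosome 19 (GRCh38). The rule used position and symbol and no expression value. Of the 58735 genes in the count tables, 43 met it, of which 37 were protein coding and 6 were pseudogenes, with 23 on the plus and 20 on the minus strand.

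HAP1 is a near-haploid human cell line that goes back to a chronic myelogenous leukemia. Total RNA was sequenced from wild-type HAP1 cells and from a SETDB1 knockout derivative, each grown in the same medium with no further treatment. Each genotype was taken through a non-directional and a directional library kit, which gave 4 groups of 3 libraries whose titles call them biological replicates. The labels do not say whether the knockout is a clone or how the gene was disrupted, nor whether replicates came from separate cultures, so p-values measure the spread between these libraries only. All comparisons below use the 6 non-directional libraries unless the directional kit is named.

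The proteins of most of these genes belong to the KRAB zinc finger family. A run of C2H2 zinc fingers, each a small fold that holds a zinc ion, reads the DNA sequence, and the KRAB domain binds TRIM28. TRIM28 brings in SETDB1, which puts trimethyl marks on lysine 9 of histone H3, a mark of silenced chromatin. The family grew by repeated local duplication in primates, and several members bind retrotransposons: ZNF91 binds SVA elements and ZNF93 binds L1 elements. Clusters of these genes on chromosome 19 are also known to carry the same histone mark over their own bodies.

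The targeted gene followed the labels in the non-directional kit. SETDB1 had 651, 543 and 519 counts in the wild-type libraries and 118, 106 and 118 in the knockout libraries, so the gene fell by 2.39 on the log2 scale (SE 0.079, edgeR adjusted p = 7e-43). In the directional kit it had 12, 17 and 7 counts against 6, 4 and 11, the groups overlapped and the gene did not pass the threshold (log2 -0.71, SE 0.41, edgeR adjusted p = 0.26), so the labels are not checked by it there. Gene counts ranged from 8921959 to 10199215 per non-directional library and from 532021 to 676691 per directional library. The lowest level that 3 counts can show was 0.294 to 0.336 counts per 1000000 gene counts (CPM) in the former and 4.43 to 5.64 CPM in the latter. Counts of the 3 knockout libraries of this kit differed from each other by less than sampling noise (chi-square per degree of freedom 0.956 to 0.991), so they may be less independent than their titles state. Wild-type replicate 2 stood further from the other wild-type libraries (1.82 and 2.00) than those did from each other (1.03), and 38 members were called without it, the number called with it.

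The labelled cell type was set against its markers. Of 9 blood and leukemia markers, 4 (CD33, SPI1, MPO and HBG1) were at 0 in every non-directional library and PTPRC and CD34 did not exceed 2 counts. ITGAM and HBA1 stayed under 1 CPM, while CD38, at 3.69 CPM in the wild type, rose by log2 0.92 (edgeR adjusted p = 2.9e-06). BCR and ABL1, the fusion partners of chronic myelogenous leukemia, were at 34.1 and 14.5 CPM in the wild type. Both rose in the knockout, BCR to 53.0 CPM (log2 0.64, edgeR adjusted p = 6.2e-15) and ABL1 to 38.2 CPM (log2 1.40, edgeR adjusted p = 8e-27). Of 4 epithelial markers, KRT8 rose from 83.5 to 115 CPM and KRT18, at 59.4 and 55.3 CPM, did not pass the threshold. CDH1 was at 1.11 and 0.407 CPM and was not tested. EPCAM rose from 3.76 ± 0.99 CPM without the knockout to 39.6 ± 1.1 CPM with it (SD, n = 3). Of 6 fibroblast markers, DCN and LUM were at 0 throughout and COL3A1 fell from 4.61 to 0.536 CPM. COL1A1, the highest of them, was at 16.5 CPM in wild-type and 18.4 CPM in knockout cells and did not pass the threshold. The part of these differences in the results below was not tested. In bulk RNA a change in the share of cells that express a gene and a change in the RNA per cell cannot be told apart.

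To show what these genes share in sequence, the bases just before the first annotated exon were read for 8 of them. Of the 43 members, 29 had a RefSeq promoter window (GRCh38.p14, 250 bases before to 50 after the RefSeq start). The 10-letter word found in most of these windows was TCCAATCAGG, and it was chosen after the windows were seen. It was present on either strand in 26 of 29 windows (89.7%) and in 122 of all 35116 windows (0.347%). Of the 96 windows with the word outside the cluster, 35 belonged to other ZNF genes. The word holds the letters CCAAT, which were in 29 of 29 member windows and in 34.6% of all windows. In 7 members the word occurred 2 times, and copies began 24 to 88 bases before the RefSeq start. The stretches below run 5′ to 3′ on the gene's strand and stop before the first base of both the RefSeq and the GENCODE gene model, and capitals mark the word. The first 5 genes had wild-type means under 2 CPM, with ZNF257 the highest of them at 1.68 CPM, and the last 3 were at 21.4 CPM or more.
ZNF93 (chr19:19900816-19900912, plus strand): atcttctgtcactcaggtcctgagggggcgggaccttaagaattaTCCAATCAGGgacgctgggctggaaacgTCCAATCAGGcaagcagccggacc
ZNF626 (chr19:20661597-20661701, minus strand): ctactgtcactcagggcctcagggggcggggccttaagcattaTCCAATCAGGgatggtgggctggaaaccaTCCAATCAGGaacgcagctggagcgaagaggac
ZNF85 (chr19:20923121-20923221, plus strand): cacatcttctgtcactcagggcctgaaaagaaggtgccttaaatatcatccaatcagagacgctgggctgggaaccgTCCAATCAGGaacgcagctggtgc
ZNF430 (chr19:21020527-21020619, plus strand): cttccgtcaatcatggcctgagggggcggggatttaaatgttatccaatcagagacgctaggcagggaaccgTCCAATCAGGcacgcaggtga
ZNF257 (chr19:22052354-22052451, plus strand): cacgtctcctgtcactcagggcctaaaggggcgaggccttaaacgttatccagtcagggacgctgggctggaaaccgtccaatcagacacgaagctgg
ZNF431 (chr19:21141910-21142023, plus strand): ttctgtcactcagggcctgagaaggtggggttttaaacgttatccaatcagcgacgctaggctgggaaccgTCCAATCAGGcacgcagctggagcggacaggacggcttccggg
ZNF486 (chr19:20167084-20167213, plus strand): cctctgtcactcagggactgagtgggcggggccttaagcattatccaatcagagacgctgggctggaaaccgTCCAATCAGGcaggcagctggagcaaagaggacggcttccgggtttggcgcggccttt
ZNF208 (chr19:22010950-22011073, minus strand): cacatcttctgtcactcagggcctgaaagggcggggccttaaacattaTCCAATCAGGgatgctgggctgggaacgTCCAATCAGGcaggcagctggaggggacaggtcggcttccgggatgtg

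By eye the 8 stretches look alike, in members with low and with high wild-type levels. They were not aligned, their likeness was not measured, and they need not stand for the other windows. Among members with a window, 5 of 6 with a wild-type mean under 1 CPM held the word, as did 21 of 23 at or above 1 CPM. The number of CG dinucleotides per window had a median of 10 in both sets, with a range of 8 to 13 in the former and 8 to 18 in the latter. The median over all windows was 14. A word found by letters is not shown to be bound by any factor.

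The cluster as a whole was higher in the knockout. After the filter on low counts, 39 of the 43 members were tested, and 38 rose, 0 fell and 1, ZNF101, did not pass the threshold (edgeR quasi-likelihood F-test, adjusted p of 0.05). The same test called 25.5% of all 13778 genes tested higher and 25.9% lower. Of the 39, 10 entered the test only through their knockout counts, so the filter favoured a rise in them. All 10 were called higher, as were 318 of the 740 genes that entered in that way among all genes tested. Of the 29 that passed the filter on the wild-type libraries alone, 28 rose, against 24.5% of all genes that passed in that way. The median log2 fold change was 0.97 over the 39 and 0.66 over those 29, while the median of all genes tested was -0.001.

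In 38 of 39 members all knockout libraries lay above all wild-type libraries, as in 28.1% of all genes tested, and these include the 10 that entered through the knockout. A log2 fold change of at least 1 was reached by 19 members, and 3.61% of all genes tested were called higher with such a change. Those 19 hold the same 10 genes, and of the 29 members that passed on the wild type alone 9 reached it, against 1.76% of all genes that passed in that way. Summed over the members, the level was 532, 485 and 532 CPM in the wild-type libraries and 1120, 1100 and 1120 CPM in the knockout libraries. The mean thus went from 516 ± 27 to 1110 ± 14 CPM (SD, n = 3), a ratio of 2.16. The libraries of each genotype stayed close together and the groups did not overlap.

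**Figure D1:**
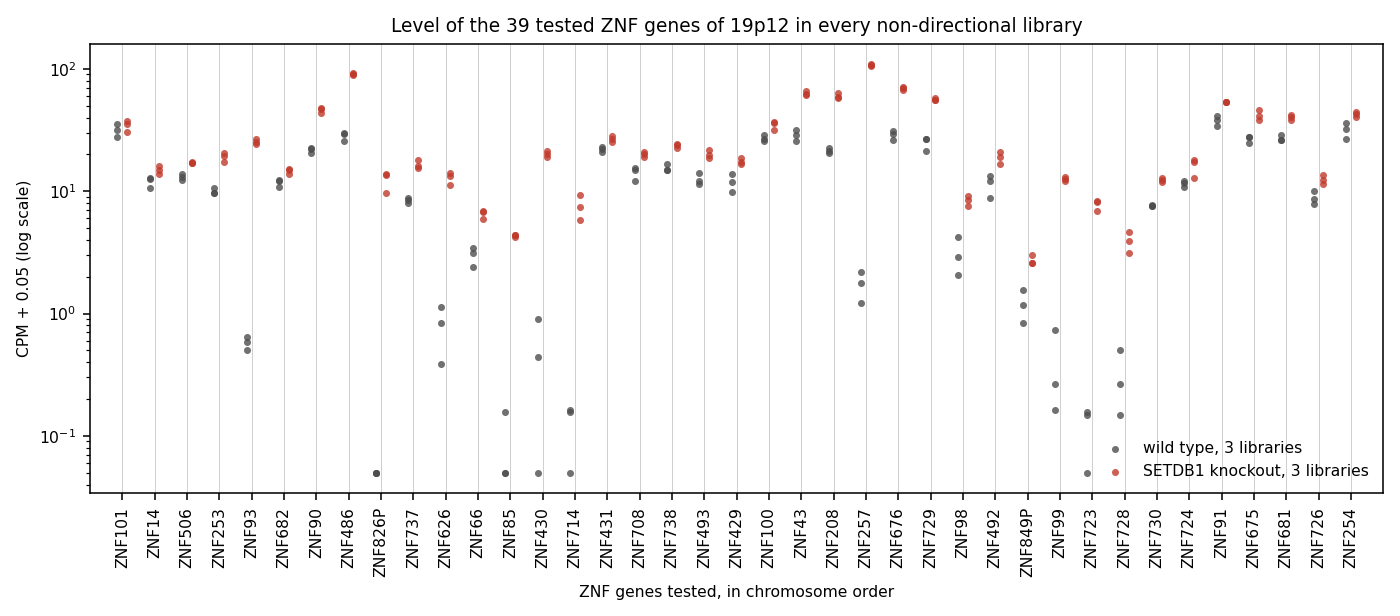
Level of each of the 39 tested members in each non-directional library, in CPM plus 0.05 on a log axis, with genes in chromosome order, grey points for the 3 wild-type and red points for the 3 knockout libraries. Most genes sit between 1.14 and 37.7 CPM in the wild type, with red points above the grey ones except in ZNF101. Among these ZNF257 goes from 1.68 to 107 CPM. Another 9 genes sit under 1 CPM in the wild type and at 3.83 to 25.4 CPM in the knockout.

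The members fell into those hardly detected in the wild type and those already expressed. In 9 tested members the wild-type mean was under 1 CPM, from 0 to 0.732 CPM, and the knockout mean was 3.83 to 25.4 CPM. All 9 were called higher, against 68.1% of the 360 tested genes under 1 CPM in the wild type, none of which could pass the filter on the wild-type libraries alone. Their summed level went from 2.44 ± 0.89 to 106 ± 5.0 CPM, a ratio of 43.5 that is given as a description, since a high ratio followed from the way these members were picked. They were ZNF93, ZNF826P, ZNF626, ZNF85, ZNF430, ZNF714, ZNF99, ZNF723 and ZNF728 in chromosome order. The other 30 tested members had wild-type means of 1.14 to 37.7 CPM, and 29 of them rose, against 25.5% of all 13778 genes tested. ZNF849P, 1 of the 29, entered the test only through its knockout counts.

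ZNF93 (chr19:19900913-19963464) encodes the protein known to bind L1 elements. The gene carries 16 zinc finger patterns, the most found in any open reading frame of its transcripts. Its counts were 6, 4 and 5 in the wild-type libraries and 261, 237 and 258 in the knockout libraries. The level rose from 0.525 ± 0.069 to 25.4 ± 1.3 CPM (log2 5.55, SE 0.19, edgeR adjusted p = 5.2e-42). An exon of the gene overlaps an exon of AC007204.1 on the other strand, and reads of the non-directional kit cannot be told apart there.

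ZNF257 (chr19:22052452-22091480) reached the highest knockout level of all members. It had 12, 19 and 16 counts in the wild-type libraries and 1064, 1032 and 1098 in the knockout libraries. The level rose from 1.68 ± 0.49 to 107 ± 2.0 CPM, 63.9-fold (log2 6.01, SE 0.10, edgeR adjusted p = 1.1e-63). Per kilobase of exon it moved from the 30th to the 2nd place among the members. Its printed stretch is without the shared word, and the gene overlaps no other annotated exon.

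ZNF430 (chr19:21020620-21060050) and its neighbour ZNF714 (chr19:21082159-21125270) lie between ZNF85 and ZNF431. ZNF430 had 4, 0 and 8 counts in the wild-type libraries and 187, 196 and 214 in the knockout libraries, a 48.2-fold rise (log2 5.53, SE 0.22, edgeR adjusted p = 9.3e-37). ZNF714 had 0, 1 and 1 counts against 72, 57 and 94. With so few wild-type counts its ratio of 106 carries a 95% counting interval of 29.1 to 884, which like the floors above covers counting error only. ZNF431 (chr19:21142024-21196053), next in line, showed the least change of the members called. Its counts were 223, 185 and 213 against 273, 262 and 254 (log2 0.28, SE 0.080, edgeR adjusted p = 0.0024). Neighbours within the cluster thus differed widely in their response.

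ZNF85 (chr19:20923222-20950697) had 0, 0 and 1 counts in the wild-type libraries and 42, 41 and 44 in the knockout libraries. The ratio was 121, with a counting interval of 21.4 to 4820 (edgeR adjusted p = 2.9e-19). ZNF723 (chr19:22832321-22858667) had 1, 0 and 1 counts against 79, 81 and 70, a ratio of 110 with an interval of 30.0 to 911 (edgeR adjusted p = 3.7e-26). In both genes the knockout libraries lay far above every wild-type library, and the size of the ratio is poorly known. ZNF826P (chr19:20340269-20424969), a transcribed pseudogene, had no count in any wild-type library and 134, 95 and 137 in the knockout libraries. Against 3 counts over the 3 wild-type libraries together it was at least 116-fold higher (edgeR adjusted p = 1.1e-31).

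ZNF99 (chr19:22752183-22784107), with 29 finger patterns, had 7, 1 and 2 counts in the wild-type libraries and 117, 122 and 133 in the knockout libraries. This was a 37.0-fold rise (log2 5.10, SE 0.26, edgeR adjusted p = 1.1e-30). ZNF626 and ZNF728 rose less, by log2 4.09 and 3.89, with knockout means of 12.8 ± 1.5 and 3.83 ± 0.77 CPM. ZNF99, ZNF723 and ZNF728 follow each other on the chromosome with no other tested gene between them. So do ZNF85, ZNF430 and ZNF714.

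**Figure D2:**
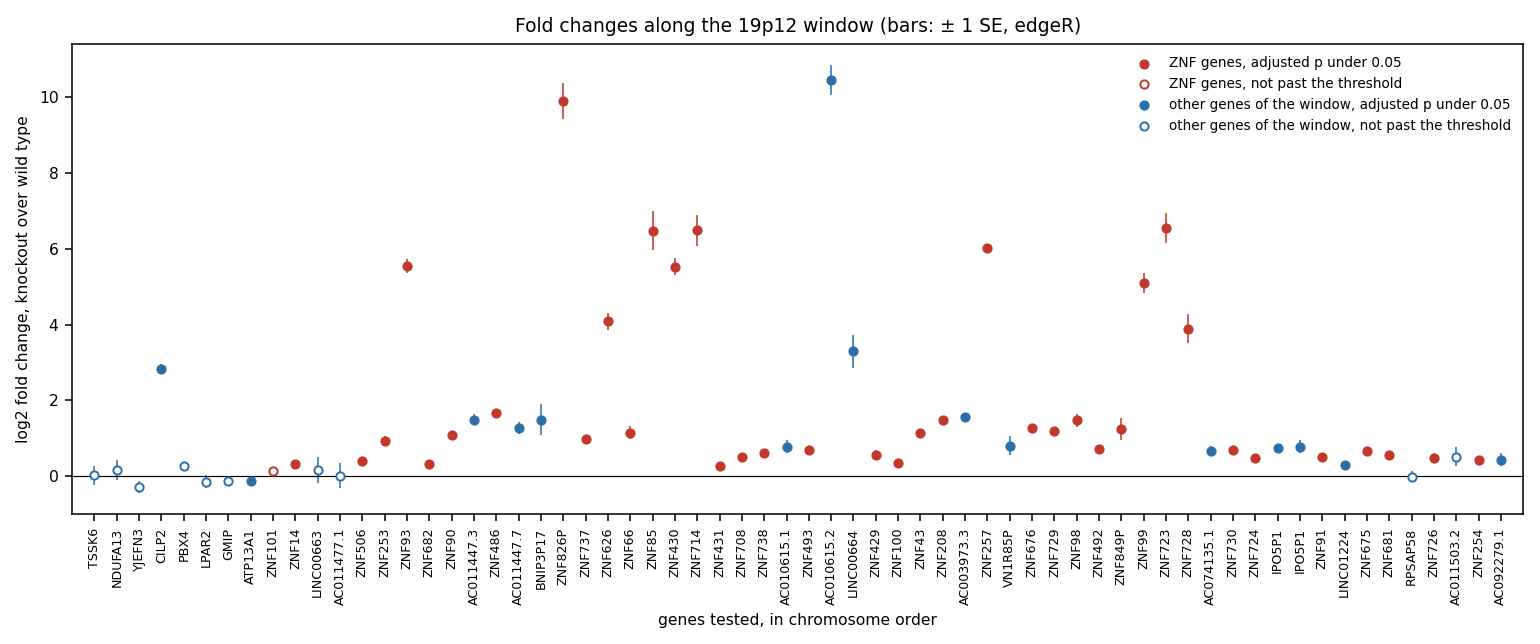
Log2 fold change of the knockout over the wild type (edgeR, bars ± 1 SE) for each gene of the window that was tested, in chromosome order, with ZNF genes in red, other genes in blue and open points for genes not past the threshold. ZNF93, ZNF257 and the other genes of the largest rises stand far above the rest of the cluster, and the points of ZNF826P and AC010615.2, which had no wild-type count, are fitted values that depend on the fit and are not measured sizes.

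Of the members at or above 1 CPM in the wild type, 28 besides ZNF257 rose, by 1.21-fold to 3.21-fold. These include ZNF849P, which entered the test only through its knockout counts. ZNF486 (chr19:20167228-20200490) gave the upper end of that range. Its counts went from 296, 228 and 279 to 882, 866 and 944 (log2 1.68, SE 0.058, edgeR adjusted p = 2.1e-41). Since length sets how many reads a gene yields, levels were compared between genes per kilobase of annotated exon. ZNF676 (chr19:22179091-22215775) was highest in both genotypes, with 9.32 CPM per kilobase in wild-type and 22.5 in knockout cells. Its counts were 301, 230 and 288 against 655, 697 and 712 (log2 1.27, SE 0.062, edgeR adjusted p = 1.6e-31).

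ZNF486 was next in the wild type with 6.62 CPM per kilobase and reached 21.2 in the knockout, which differed from the 21.4 of ZNF257 by less than their spread. ZNF729 (chr19:22286408-22317176), which has 39 finger patterns, was the 3rd with 6.41 in wild-type and 14.6 in knockout cells. Its counts were 272, 189 and 247 against 569, 549 and 566 (log2 1.18, SE 0.068, edgeR adjusted p = 3.9e-27). In the wild type ZNF486 and ZNF729 differed by less than the spread of their libraries, which overlapped. Annotated exons take in every listed transcript, so per-kilobase levels are low where a gene has long exons that the cells do not use.

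**Figure D3:**
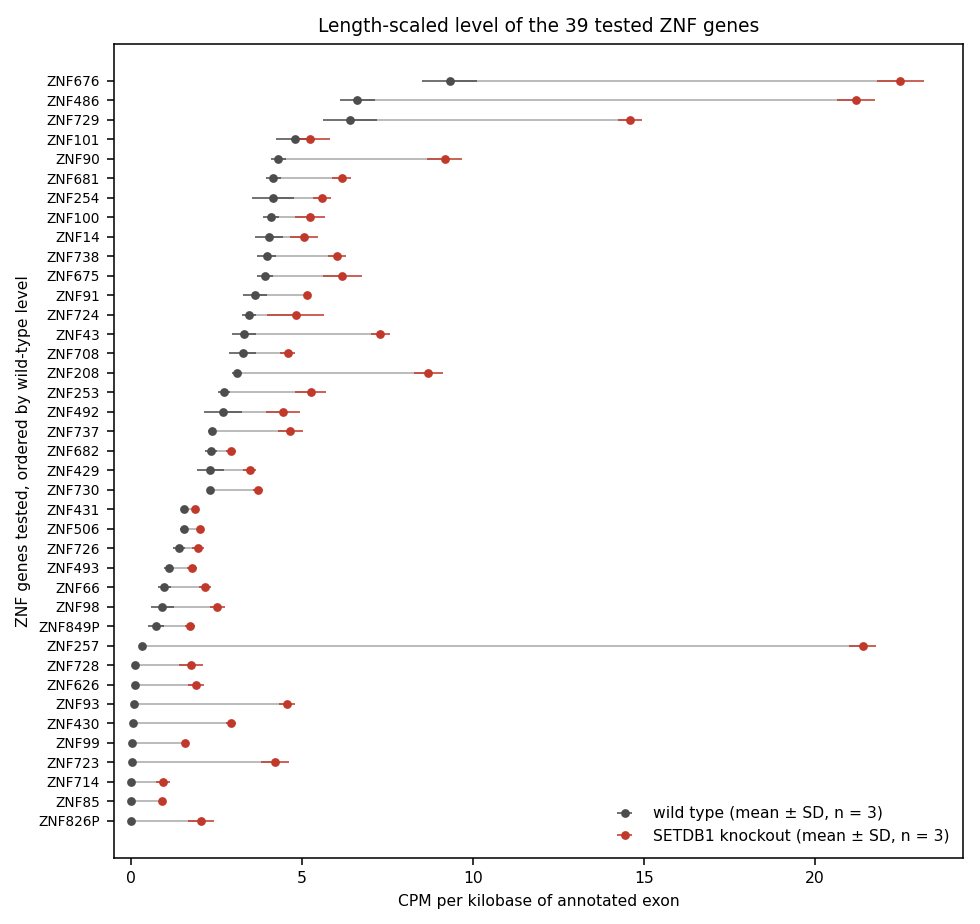
Length-scaled level (CPM per kilobase of annotated exon, mean ± SD of 3 libraries) of the 39 tested members, ordered by wild-type level, in grey for the wild type and red for the knockout. ZNF676 leads in both genotypes at 9.32 and 22.5, and ZNF257 moves from the 30th to the 2nd place.

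ZNF91 (chr19:23304991-23395560), the gene of the protein known to bind SVA elements, has 32 finger patterns and lies near the far end of the cluster. It was the member with the highest wild-type CPM, with 416, 300 and 359 counts against 527, 524 and 539 in the knockout libraries. The level rose from 37.7 ± 3.5 to 53.5 ± 0.44 CPM (log2 0.50, SE 0.062, edgeR adjusted p = 6.4e-11). The groups did not overlap. The change was thus far smaller than that of ZNF93.

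ZNF208 (chr19:21932958-22010949), with 36 finger patterns, had 229, 187 and 192 counts in the wild-type libraries and 577, 618 and 582 in the knockout libraries. It rose 2.79-fold (log2 1.48, SE 0.068, edgeR adjusted p = 3.2e-33). ZNF43 (chr19:21804949-21852125), which lies before it on the same strand, had 294, 226 and 296 counts against 643, 603 and 628. It rose 2.20-fold (log2 1.13, SE 0.064, edgeR adjusted p = 1.8e-27). Each of these genes at least doubled in the mean, with no overlap of the groups. ZNF675 (chr19:23525631-23687220) had 280, 219 and 257 counts against 403, 377 and 468, a 1.58-fold rise (log2 0.66, SE 0.072, edgeR adjusted p = 6.3e-13).

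Among the first members of the window 3 showed small differences. ZNF101 (chr19:19668796-19683509) had 319, 246 and 330 counts in the wild-type libraries and 368, 299 and 357 in the knockout libraries, and the groups overlapped in CPM. Its log2 fold change was 0.13 (SE 0.075, edgeR adjusted p = 0.15), and it reached 0.21 with an adjusted p of 0.027 without knockout replicate 2 and of 0.024 without wild-type replicate 3 (edgeR). ZNF14, the next gene, had 127, 112 and 98 counts against 157, 134 and 152 (log2 0.33, SE 0.11, edgeR adjusted p = 0.0080). That call was lost without knockout replicate 1 (0.27, adjusted p = 0.059, edgeR) and without wild-type replicate 3 (0.24, adjusted p = 0.077, edgeR). ZNF682 had 125, 106 and 100 counts against 147, 146 and 139 (log2 0.32, SE 0.11, edgeR adjusted p = 0.010), and the call was lost without wild-type replicate 3 (0.26, adjusted p = 0.064, edgeR). These 3 genes are the members whose call rested on the choice of libraries.

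The remaining members with a wild-type mean of at least 1 CPM rose by log2 0.35 to 1.47. They were ZNF506, ZNF253, ZNF90, ZNF737, ZNF66, ZNF708, ZNF738, ZNF493, ZNF429, ZNF100, ZNF98, ZNF492, ZNF849P, ZNF730, ZNF724, ZNF681, ZNF726 and ZNF254. The 4 members not tested, ZNF92P2, ZNF209P, ZNF725P and ZNF92P3, are pseudogenes with at most 5 counts in any non-directional library. Similar genes can share reads, and reads without a unique alignment, 6.86% to 7.19% of the non-directional totals, were kept out of the gene counts. The median member had 6.07% of its 50-base words in the transcripts of other genes, and 6 had more than 20%. The highest shares were 48.7% for ZNF724, 41.0% for ZNF98, and 33.9% for both ZNF492 and ZNF849P, so the values of these genes are uncertain. Among the tested members under 20%, 33 of 34 rose, against 25.5% of all genes tested. Members that entered the test only through their knockout counts are among these 33.

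Genes of other kinds in the same window moved too. Of 176 such genes 25 were tested, and 14 rose, 1 fell and the median log2 fold change was 0.51, against 0.97 for the ZNF members. Among genes that passed on the wild type alone, 11 of 21 such genes rose with a median of 0.44, against 28 of 29 members with a median of 0.66. Of the 8 that lie before ZNF101, 1 rose and 1 fell, with a median of -0.05. Of the 17 that start after it, 13 rose and 0 fell, with a median of 0.78. RPSAP58, a pseudogene between ZNF681 and ZNF726, had 78, 78 and 71 counts against 85, 83 and 69 and did not pass the threshold (log2 -0.01). Of these 25 genes, several overlap an exon of a member. Reads listed as ambiguous, 933271 to 1061985 per non-directional library, were kept out of the gene counts. How far this changed the values of overlapping genes was not tested.

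The transcript AC010615.2 (chr19:21444241-21463908), which lies between ZNF493 and ZNF429 and overlaps no annotated exon, had no count in the wild-type libraries and 178, 173 and 187 in the knockout libraries. Against 3 counts over the wild-type libraries together it was at least 171-fold higher. In the 5 Mb before the window, 20 of 89 tested genes rose and 22 fell, with a median of 0.00. In the 5 Mb after it 4 genes were tested, of which 2 rose.

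The members were set beside ZNF genes elsewhere. On chromosome 19 outside the window and before 52 Mb, 71 of 113 tested ZNF genes rose (62.8%) and 2 fell, with a median log2 fold change of 0.43. After 52 Mb 53 of 91 rose (58.2%) and 2 fell, with a median of 0.29. On the other chromosomes 79 of 242 rose (32.6%) and 35 fell, with a median of 0.06. Only genes that passed the filter on low counts enter these shares, and the differences between groups of genes are given as a description.

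**Figure D4:**
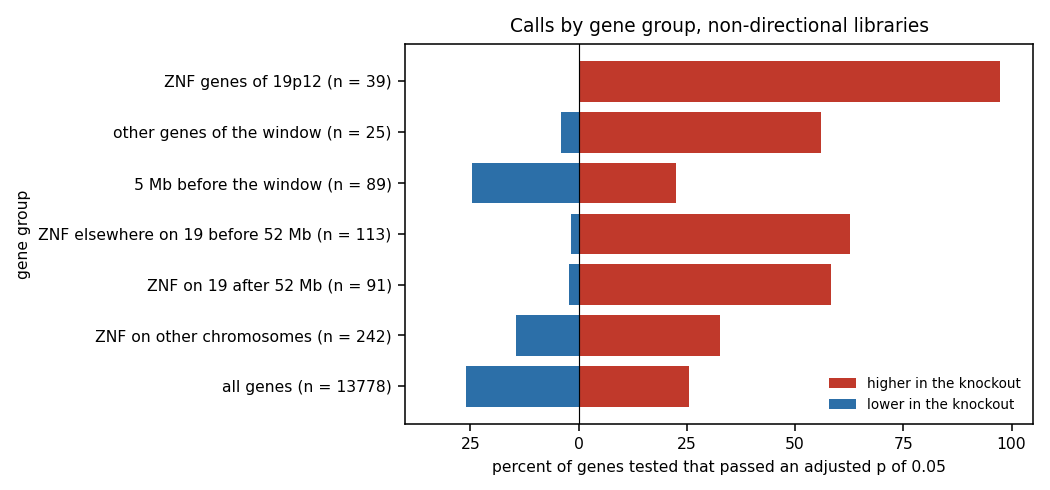
Percent of the tested genes of each group that were called higher (red, to the right of 0) or lower (blue, to the left) in the knockout at an edgeR adjusted p of 0.05, with both arms from the non-directional kit. ZNF genes of the window reach 97.4% higher and 0 lower, while all genes are split into 25.5% higher and 25.9% lower.

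In the directional kit little of the cluster could be read. Listed reads were 10106592 to 12842195 per library, against 11096966 to 12684855 for the other kit, but 94.6% of the directional reads were counted in no annotated gene. Reads without a unique alignment were listed as 0 in every directional library, against 6.86% to 7.19% in the other kit. Such reads may have been handled differently in the kits, which was not tested. The strand setting of the counting was not given in the sources used here. Gene counts of this kit may therefore refer to the strand opposite the named gene, which was not tested. Of the 43 members 39 had at most 5 counts in every directional library, and 3 were tested. With so few reads placed in them, a difference in the other members was not detectable. Of the 3, ZNF90 and ZNF429 rose, against 7.67% of all 4745 genes tested in this kit. ZNF90 had 4, 6 and 6 counts against 42, 39 and 40 in the knockout libraries of the kit (log2 2.95, SE 0.30, edgeR adjusted p = 4.8e-14). ZNF429 had 2, 2 and 0 counts against 15, 16 and 13 (log2 3.40, SE 0.56, edgeR adjusted p = 1e-06). ZNF506 had 8, 12 and 11 counts against 19, 17 and 13 and did not pass the threshold (log2 0.71, SE 0.33, edgeR adjusted p = 0.14).

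All 3 genes share exon bases with a gene on the other strand. AC011447.3, which lies across from ZNF90, had 45, 37 and 31 counts against 113, 104 and 116 in the non-directional kit. In the directional libraries it had 43, 36 and 33 counts against 44, 59 and 48. AC123912.1, across from ZNF429, had 2, 2 and 0 counts against 9, 14 and 13 in the non-directional kit. LINC00664, which shares exon bases with ZNF429 on the same strand, had 2, 2 and 2 counts against 19, 25 and 21 in that kit (log2 3.29, edgeR adjusted p = 8.1e-10). A fit over 12 libraries tested whether the kits differed in this comparison, and of 39 members tested 2 did, ZNF90 and ZNF429, both with the larger effect in the directional kit, against 1.82% of all genes in either direction and 1.17% larger in that kit. Which strand gave the directional counts of ZNF90 and ZNF429 was not tested.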

How the data were processed

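The authors deposited raw gene counts for 12 libraries in HTSeq layout. The submitters' processing notes name Trim Galore 0.4.4, STAR 2.6.0a, SAMtools 1.9, HTSeq 0.11.1, DESeq2 and hg38. The annotation and strand setting were not given in the sources used here, and the publication given does not describe these libraries. All 58735 gene IDs matched GENCODE 29. Tables of L1 elements were not used here, and 1 blood marker is not reported here. Members and lists were chosen with earlier results of these data known.

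Each kit was fitted alone with edgeR 4.0.16 in R 4.3.3: filterByExpr (minimum count 10, minimum total 15), TMM, quasi-likelihood F-test and Benjamini-Hochberg adjustment over all genes tested (threshold 0.05). The fit was tested on simulated data. SE is the absolute log2 fold change over the square root of F. CPM used TMM-scaled totals. The kit difference was the genotype by kit term over 12 libraries.

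Full values are given for the 8 largest rises without overlap of the groups, for ZNF91, ZNF93, ZNF43, ZNF85, ZNF208 and ZNF675, and for the 3 highest wild-type levels per kilobase. No member fell. ZNF101, ZNF14, ZNF682, ZNF431, ZNF90, ZNF429 and ZNF506 were chosen after their values were seen.

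Reads in no feature were 4.00% to 4.40% of the non-directional totals. Alternatives were other scalings, no filter, DESeq2 1.42.0, leaving out each library, a replicate block, knockout libraries summed as 1, and members without shared exons. Those limited to members passing on the wild type or under 20% shared words were added after seeing the data.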

Additional observations from a re-analysis of the deposited data

Results flagged for a closer look

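In 2 of the 39 members tested, the size of the response to the knockout was not the same in both library kits by the genotype by kit term of the edgeR fit, against 1.82% of all 15832 genes tested. The effect of ZNF90 was larger by log2 1.96 in the directional kit (edgeR adjusted p = 6.6e-06), and all 3 knockout libraries lay above the wild type in both kits. The effect of ZNF429 was larger by log2 3.02 in the directional kit (edgeR adjusted p = 0.00017), from at most 2 wild-type counts per directional library. Both genes overlap a gene on the other strand, and its part in the difference was not tested. The strand counted in the directional kit is not known, so the kits may not count the same RNA at these genes. Of the 50-base words of ZNF90, 21.1% are also in transcripts of other genes.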

How the results depend on the processing

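The count of 38 members called in the non-directional kit was 36 with the DESeq2 Wald test and with the fit over 12 libraries, and 37 to 39 when each library was left out. It was 38 with median-of-ratios scaling, total-count scaling, no filter and the knockout libraries summed as 1, and 28 of 29 on the members that passed on the wild type alone. Asking for a log2 fold change of at least 1 gave 19, and members with no exon overlap gave 21 of 22, by construction of these settings. The median of 0.97 ranged from 0.93 to 1.02 with a library left out and was 0.46 after subtraction of the median of the other genes of the window. The SETDB1 value ranged from -2.45 to -2.35 with a library left out. The directional count of members was 2 under all alternatives run, and the kit difference count was 2 with each library left out. The DESeq2 Wald test called 5 members for the kit difference: ZNF90 and ZNF429, and with negative terms ZNF714 (-6.68), ZNF826P (-8.29) and ZNF723 (-6.73). ZNF714 and ZNF723 had 0 counts in every directional library, and ZNF826P had 1 count in 1 of them. An effect in the directional kit was thus not measurable in these genes, and the cause of the calls was not tested. Of 507 values of single members over 13 settings, 498 kept their direction and side of the threshold, 7 lost the call (ZNF14 and ZNF682), 2 gained it (ZNF101) and 0 reversed.

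The replicate numbers did not pair the samples: deviations of same-numbered libraries correlated at -0.025 to -0.0013 with the non-directional kit and at -0.027 to 0.014 with the directional kit. With the replicate block 38 members were called in the non-directional kit, 2 in the directional kit and 2 for the kit difference, the median was 0.97 and the SETDB1 value -2.39. The block changed no other call. The directional kit is limited by how few reads were placed in genes, with a strand setting not given in the sources used here, and 39 members had at most 5 counts in each of its libraries.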

Other observations

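Other genes of the pathway that SETDB1 works in were measured in the non-directional libraries as a list of 15 silencing genes besides SETDB1. Of these 7 rose (46.7%), 4 fell (26.7%) and 4 did not pass the threshold (edgeR, adjusted p of 0.05), against 25.5% higher and 25.9% lower among all genes tested. Their median log2 fold change was 0.05. ATF7IP, the partner that stabilises SETDB1 in the nucleus, rose from 57.5 ± 0.68 to 177 ± 5.0 CPM (SD, n = 3), 3.07-fold. TRIM28, which links KRAB zinc finger proteins to SETDB1, fell from 1140 ± 65 to 1060 ± 4.0 CPM (log2 -0.11, edgeR adjusted p = 0.00017). The heterochromatin proteins CBX3 and CBX5, which bind methylated lysine 9 of histone H3, fell by 0.09 and 0.25 on the log2 scale, while CBX1 rose by 0.13. ZNF274, a KRAB zinc finger gene at the far end of chromosome 19 whose protein is known to recruit SETDB1 to ZNF genes, rose by log2 0.21 (edgeR adjusted p = 0.0029).

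CILP2, which lies in the window before the first ZNF gene and encodes a matrix protein, had 43, 22 and 38 counts in the wild-type libraries and 253, 286 and 237 in the knockout libraries (log2 2.84, SE 0.13, edgeR adjusted p = 3.3e-33). Its neighbour PBX4 had 102, 100 and 87 counts against 121, 120 and 122 and did not pass the threshold (log2 0.26, edgeR adjusted p = 0.051).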
